A study of Drosophila melanogaster with 2 samples.

Results

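The regions described here are the binding peaks of a p53-eGFP fusion protein that sit at promoters where every start site nearby points the same way. They came from chromatin immunoprecipitation sequencing (ChIP-seq) of whole Drosophila melanogaster embryos of mixed sex, aged 0 to 24 h. The flies, of strain p53-MiMIC-GFP, carried an eGFP exon inside an intron of their own p53 gene. The labels describe the pull-down as made through the GFP tag in one field and name p53 as the antibody target in another. The samples form 1 group of 2 biological replicates, numbered 2 and 3, so every comparison is between kinds of regions and none is between conditions. Whole embryos over a full day of development mix all cell types, and which cells a peak comes from cannot be told.

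A peak was taken when its summit lay within 500 bp of an annotated transcription start site (TSS) of a protein-coding gene and all such TSSs in that window were on the same strand. In the final list, which the authors selected by the irreproducible discovery rate (IDR) over both replicates, 892 of 2290 peaks met this rule, at 834 different nearest genes. They are called one-strand peaks below. A further 502 IDR peaks had TSSs of both strands in the window and are called divergent peaks. The 5045 weaker regions of the pooled list that met the same rule but overlapped no IDR peak are called candidates. The pooled list is labelled as peaks and background used as input for IDR, so candidates may include background. Of the candidates, 397 (7.87%) had a deposited q of 0.01 or less. Signal values are the authors' own peak strengths, on a scale that the sources used here do not give. They ran from 75.8 to 1969.7 over the one-strand peaks, and no candidate exceeded 75.8. Read numbers per peak are unknown. Intervals on shares therefore cover only counting error, and neighbouring regions are not fully independent.

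p53 is a DNA-damage response factor that regulates transcription and binds a pair of short palindromic elements, called half-sites, that lie next to each other. In Drosophila it is known for switching on death genes after irradiation. Fly promoters are commonly sorted by the sequence words around their TSS. DREF, the DNA replication-related element-binding factor, and M1BP, the motif 1 binding protein, bind words typical of widely expressed genes. The GAGA factor, made by Trl, is linked to promoters of regulated genes such as those of heat shock, and the TATA box and initiator place the start of transcription.

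The sequences below show these words at some strong, though not always the strongest, one-strand peaks that carry them upstream of the TSS. Each is 120 bases from the Release 6 genome (dm6), 5′ to 3′ on the strand of the gene and free of annotated exons, with the word in capitals. The DREF word, TATCGATA, is shown for eEF1gamma, a translation elongation factor gene (3R:29220052-29220171, plus strand), and CG3184 (X:6689157-6689276, minus strand).
eEF1gamma: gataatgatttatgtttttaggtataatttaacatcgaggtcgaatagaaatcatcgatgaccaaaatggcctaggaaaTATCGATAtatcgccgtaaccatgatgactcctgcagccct
CG3184: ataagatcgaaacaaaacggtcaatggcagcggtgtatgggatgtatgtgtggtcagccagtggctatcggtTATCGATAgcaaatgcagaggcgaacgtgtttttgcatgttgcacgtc
Counted from the TSS, with negative distances upstream, the centre of the word lay at -37.5 bp at eEF1gamma and at -426.5 bp at CG3184. The M1BP word, GGTCACAC, is shown for Mer, the fly homologue of the merlin tumour suppressor (X:19693501-19693620, minus strand), and cib, an actin-binding protein gene (X:4105915-4106034, plus strand), where it reads in the opposite direction and occurs again nearer to the TSS.
Mer: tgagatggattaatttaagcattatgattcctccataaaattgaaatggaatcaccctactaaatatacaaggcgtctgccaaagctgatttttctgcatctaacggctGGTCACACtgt
cib: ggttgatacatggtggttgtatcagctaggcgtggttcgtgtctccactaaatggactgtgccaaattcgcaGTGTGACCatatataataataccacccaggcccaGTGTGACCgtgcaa
The E-box, CAGCTG, is shown for wnd, which encodes a kinase upstream of JNK (3L:19635950-19636069, minus strand), and Hpf1, a partner of the PARP enzyme (3R:5791759-5791878, plus strand).
wnd: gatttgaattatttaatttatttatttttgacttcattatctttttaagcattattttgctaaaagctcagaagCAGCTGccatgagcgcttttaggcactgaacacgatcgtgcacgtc
Hpf1: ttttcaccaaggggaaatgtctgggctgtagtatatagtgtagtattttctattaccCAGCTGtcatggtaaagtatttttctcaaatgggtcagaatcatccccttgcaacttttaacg
A full p53 site, taken as half-sites next to each other or 1 bp apart that together departed from the consensus at no more than 3 of 20 bases, is shown for Rtnl1, a reticulon of the endoplasmic reticulum (2L:5000762-5000881, minus strand), and spoon (X:5419502-5419621, minus strand). The last is the site in the p53 gene itself (3R:23053204-23053323, minus strand), added after its values were seen; it lies in an intron, with its centre 241.5 bp downstream of the nearest TSS.
Rtnl1: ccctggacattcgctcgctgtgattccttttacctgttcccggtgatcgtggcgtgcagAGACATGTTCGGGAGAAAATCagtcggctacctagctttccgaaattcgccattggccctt
spoon: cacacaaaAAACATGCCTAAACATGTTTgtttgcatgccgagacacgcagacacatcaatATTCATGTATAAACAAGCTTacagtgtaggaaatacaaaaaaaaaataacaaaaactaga
p53: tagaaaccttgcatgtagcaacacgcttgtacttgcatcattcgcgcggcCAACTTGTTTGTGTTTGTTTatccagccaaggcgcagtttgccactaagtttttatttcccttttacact
The sites in Rtnl1 and p53 held 3 mismatches, the most allowed. The stretch at spoon held 2 sites, an outer one with 0 mismatches, centred at -507.5 bp from the TSS and -12.5 bp from the summit (negative for upstream), and an inner one with 3. A matching stretch is a description of the letters and does not show that a factor is bound there.

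Summits lay mainly just upstream of the TSS. Of the 892 one-strand peaks, 689 (77.2%, 95% Wilson interval 74.4 to 79.9) had their summit upstream, 200 (22.4%) downstream and 3 on the TSS base itself. The median position was 76 bp upstream, since the median signed distance was -76 bp with quartiles at -169 and -8 bp. The 100 bp next to the TSS on its upstream side held 321 peaks (36.0%), the next 100 bp held 176 (19.7%), and the 100 bp from the TSS base onward held 112 (12.6%). Farther downstream, out to 500 bp, the counts were 34, 19 and 38 peaks for steps that ended at 200, 300 and 500 bp.

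The candidates at one-strand promoters were spread more evenly around the TSS. Upstream summits made up 77.2% of the one-strand peaks and 2408 of 5045 candidates (47.7%, interval 46.4 to 49.1), a difference of 29.5 percentage points (two-sided Fisher's exact p = 1.73e-62, odds ratio 3.72). Against the 397 candidates with a q of 0.01 or less, of which 63.7% lay upstream, the difference was smaller, at 13.5 points (Fisher's exact p = 8.71e-07). The median candidate summit lay 10 bp downstream of the TSS.

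**Figure D1:**
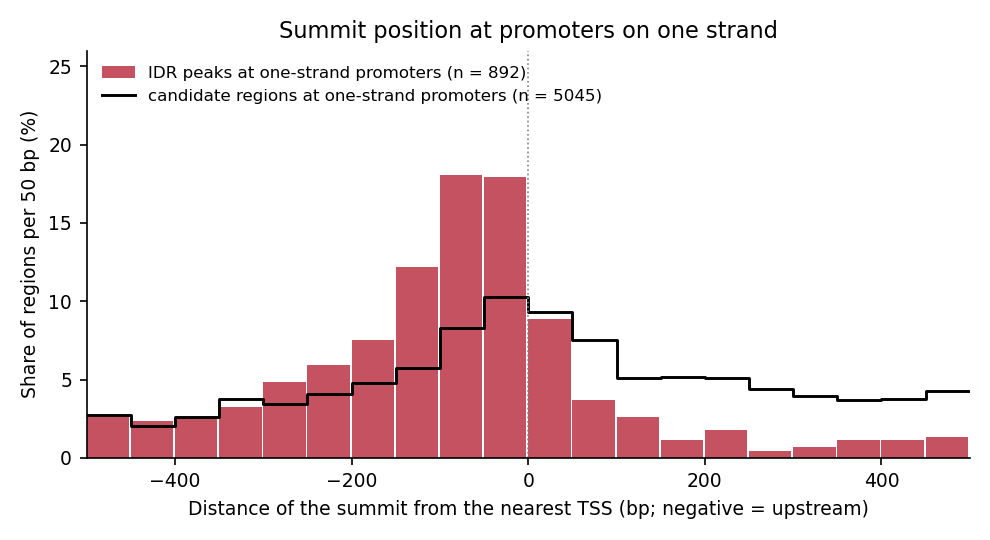
Position of summits relative to the nearest TSS (horizontal axis, bp, negative upstream) as the share of regions in each 50 bp step (vertical axis, %), for the 892 one-strand IDR peaks (bars) and the 5045 one-strand candidates (line). The bars crowd just upstream of the TSS and thin out beyond 100 bp downstream, where the line stays level.

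Closeness to the TSS depended on what the peaks were set against. Summits within 100 bp of the TSS made up 433 of the 892 one-strand peaks (48.5%, interval 45.3 to 51.8) and 35.6% of the candidates (Fisher's exact adjusted p = 3.65e-13 over 2 comparisons). Against the candidates with a q of 0.01 or less, the order turned round: 48.5% of one-strand peaks and 55.7% of these candidates lay within 100 bp (Fisher's exact adjusted p = 0.0187). Divergent peaks lay closer to a TSS, with 379 of 502 (75.5%) within 100 bp (Fisher's exact adjusted p = 6.27e-23). A divergent window holds at least 1 TSS on each strand by definition, whereas 706 one-strand windows (79.1%) held a single TSS, and the part of this in the difference was not tested.

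Stronger peaks were on the whole farther from the TSS, although no test of this was made. With the one-strand peaks ranked by signal value and cut into 4 groups of 223, summits within 100 bp made up 35.9% (29.9 to 42.4) in the strongest group, 45.3% and 52.9% in the next 2, and 60.1% (53.5 to 66.3) in the weakest. The upstream share was 80.7% (75.04 to 85.4) in the strongest group and 71.3% (65.0 to 76.8) in the weakest, with overlapping intervals. On either side of the edge of the 500 bp window, counts and signal values were close. The outermost 50 bp steps inside it, which ended at 450 and 500 bp from a TSS, held 31 and 35 IDR peaks with median signal values of 115.6 and 122.3, and all of these were one-strand peaks. The steps just outside, to 550 and 600 bp, held 28 and 34 IDR peaks with medians of 126.9 and 110.8. The outermost one-strand peaks were those of CG9184 (-499 bp, signal value 77.4) and dac, a regulator of eye and leg development (-497 bp, 76.4).

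The downstream peaks were mostly in leader exons. Of the 200, 156 (78.0%, 71.8 to 83.2) had their summit in an annotated 5′ UTR, 39 (19.5%) in an intron and 5 in a coding exon. Of the 689 upstream peaks, 403 (58.5%) lay outside all genes and 202 (29.3%) in an intron, either of the same gene's longer transcripts or of another gene. The median signal value was 112.3 for the upstream and 102.7 for the downstream peaks. The upstream share was close to even over the arms, at 72.2% on 2L, 77.4% on 2R, 80.1% on 3L, 78.4% on 3R and 77.2% on X, and 8 of 9 peaks on arm 4 lay upstream.

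Each replicate placed most of the summits on the same side of the TSS. An overlapping region was found for 890 one-strand peaks in replicate 2's own list and for all 892 in that of replicate 3. Each of these lists holds 30000 regions, and the IDR peaks were selected over both replicates. The overlap therefore largely follows from the selection, and the agreement below is a description of peaks chosen this way. Taken from the strongest such region, the summit lay upstream of the same TSS in 77.5% of replicate 2's regions and 76.7% of replicate 3's. The summits of the replicates lay a median of 27 bp apart. Among upstream peaks with a region in both lists, 642 of 687 (93.4%) were upstream in both, and among downstream peaks 161 of 200 (80.5%) were downstream in both. The replicates share a control library. In addition, 48 one-strand peaks in replicate 2 and 50 in replicate 3 shared their strongest overlapping region with another one-strand peak.

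No difference in signal between one-strand peaks and other IDR peaks passed the test. The median signal of all promoter peaks was exceeded by 446 of 892 one-strand peaks (50%, 46.7 to 53.3) and 251 of 502 divergent peaks (50%, 45.6 to 54.4), with Fisher's exact adjusted p = 1 over 3 comparisons. The shares were 47.2% of 562 intronic peaks and 46.8% of 235 intergenic peaks (Fisher's exact adjusted p = 0.630 for each). The one-strand median was 109.9, and the divergent median 110.1. At the top of the whole list, 9 of the 25 strongest IDR peaks (36%) and 34 of the strongest 100 (34%) were one-strand peaks. Of the strongest 500, 199 (39.8%) were, beside 892 of 2290 in the whole list. Peaks that overlapped the 2290 strongest regions of both replicates made up 632 of the 892 one-strand peaks (70.9%, 67.8 to 73.7) and 347 of 502 divergent peaks (69.1%, 64.9 to 73.0; Fisher's exact p = 0.503).

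The strongest one-strand peak was also the strongest in the series, at Xrp1, a bZIP transcription factor gene induced through p53 after irradiation (3R:18923986-18924638). Its signal value was 1969.7 in the final list, 820.2 in replicate 2 and 1150.5 in replicate 3, and it ranked first in all 3 lists. Its summit lay 361 bp downstream of the nearest TSS, the last of 4 promoters of the gene, in an intron. The next was 39 bp upstream of Ugalt, a UDP-galactose transporter gene (X:2703722-2704055), with a signal value of 1072 in the final list, 502 in replicate 2 and 574 in replicate 3. CG14100 (3L:19590452-19590769) followed at 981, with its summit 88 bp upstream. These peaks stood well above the median one-strand peak in both replicates, which was 44.5 in replicate 2 and 68.3 in replicate 3.

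The next peaks in the order were those at wnd, px, CG1888, egr, ph-p and p53. wnd had 843.6 in the final list (331 in replicate 2 and 511 in replicate 3), with its summit 163 bp upstream. px, a gene of wing vein patterning, had 824 with a summit 190 bp upstream of the last of its 3 promoters. CG1888 had 725 (293 in replicate 2 and 429.5 in replicate 3), with its summit 227 bp upstream. egr, which encodes the fly tumour necrosis factor, had 675 (308 in replicate 2 and 372 in replicate 3), with its summit 55 bp downstream in the 5′ UTR. ph-p, a Polycomb group gene, had 659 with a summit 484 bp upstream, near the outer edge of the window. p53 itself had 609.8 (247 in replicate 2 and 367 in replicate 3), with its summit 191 bp downstream of the TSS of its second promoter. Of these 6 peaks, only that of egr had its summit within 100 bp of the TSS.

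The rest of the 20 strongest ran from 419 to 596. They included those at PNPase (a mitochondrial RNA-degrading enzyme), mRpL41 (a mitochondrial ribosomal protein), Sox14 (a transcription factor of the ecdysone response), larp (an RNA-binding protein), Rtnl1, CG13921, aop (the ETS repressor Yan), CG31145, MFS10 and GstE13 (a glutathione S-transferase). The order was much the same in both replicates for these strong peaks, and looser lower down. For the 890 peaks with a region in each list, the replicates' signal values had a Spearman rank correlation of 0.596 and a Pearson's r of 0.919, given as a description of regions that were chosen from the pooled replicates.

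**Figure D2:**
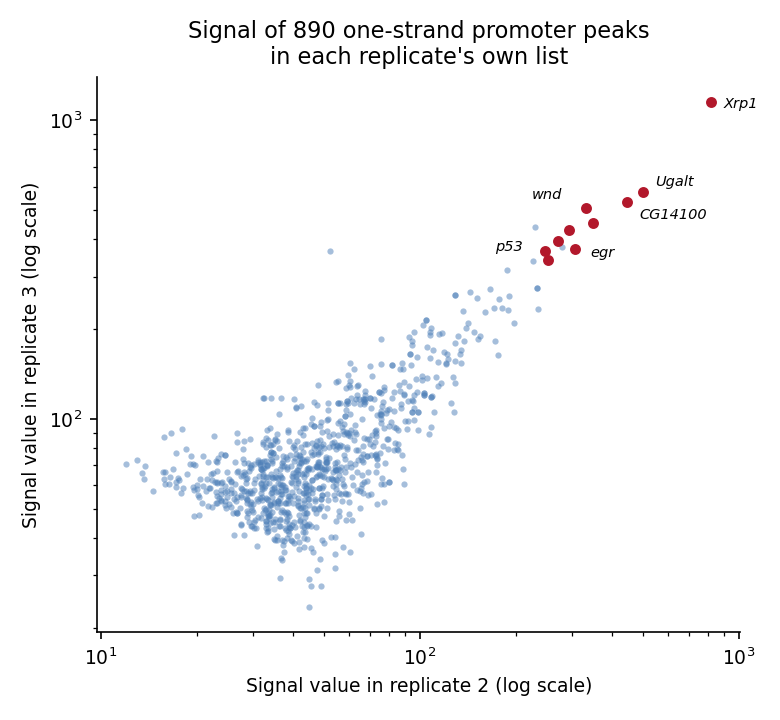
Signal value of the 890 one-strand peaks with a region in both lists, in replicate 2 (horizontal axis, log scale) and replicate 3 (vertical axis, log scale), with the 10 strongest in red and some of them named. Xrp1 stands alone at 820.2 in replicate 2 and 1150.5 in replicate 3, and the bulk lies near the medians of 44.5 and 68.3.

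Many of the genes with one-strand peaks had several promoters. TSSs of a gene within 500 bp of each other were merged into 1 promoter and numbered from the 5′ end of the gene. Of the 834 genes, 336 (40.3%, 37.0 to 43.7) had at least 2 promoters, and of the 10751 protein-coding genes that could hold a one-strand peak 2055 (19.1%) did. A gene with more promoters offers more places for a peak, and no test was made. In peaks, 379 of 892 (42.5%) were at such genes. Among these, 170 (44.9%, 39.9 to 49.9) were at the first promoter, 98 at a middle one and 111 at the last.

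The share at the first promoter was 44.9% for one-strand peaks and 38.7% (785 of 2031) for candidates at genes with several promoters (two-sided Fisher's exact p = 0.0256). This difference was not stable. It was -0.207 points against the 45.1% of candidates with a q of 0.01 or less (Fisher's exact p = 1), and 4.77 points without replicate 3 (Fisher's exact p = 0.0913). At genes with exactly 2 promoters, 109 of 179 one-strand peaks (60.9%, 53.6 to 67.7) and 521 of 1053 candidates (49.5%, 46.5 to 52.5) were at the first. Upstream summits made up 75.3% of one-strand peaks at a first promoter (68.3 to 81.2), 82.3% at a later one (76.6 to 86.9) and 75.8% at genes with 1 promoter (71.9 to 79.3), with overlapping intervals.

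In all, 49 genes held at least 2 one-strand peaks, and 23 of them held peaks at 2 or more promoters. Rtnl1 held 4, at 4 of its 7 promoters. The values along the gene were 140 at promoter 1, 208 at promoter 3, 416 at promoter 4 and 466 at promoter 6, all upstream of their TSS by at least 73 bp. The strongest peak of Rtnl1 was thus at an inner promoter, and the peak at the outermost one was the weakest. larp also held 4. Its strongest peak, at 507, stood 324 bp upstream of the last of its 5 promoters, while its first promoter had 76.5. The remaining peaks of larp, 173 and 83.0, were both at promoter 2. They had the same strongest overlapping region in each replicate, so they may not be separate.

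Similar inner peaks were seen at other genes. dnc, a cAMP phosphodiesterase gene of learning, held 3 peaks at 3 of its 8 promoters, with 322 at promoter 5, 83.8 at promoter 7 and 76.8 at promoter 2. Ptpmeg2, a tyrosine phosphatase gene, held 3 of nearly equal strength, 185.7, 185.6 and 182.1, at its promoters 5, 4 and 2, each 185 to 210 bp upstream. eEF1alpha1, an elongation factor gene, held peaks of 170 and 83.7 at promoter 2 and 146 at promoter 3. Those at promoter 2 had the same strongest overlapping region in each replicate. ph-p had a peak of 145 at its first promoter and peaks of 659 and 98.0 at its second.

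p53 held 3 one-strand peaks at 2 of its 3 promoters. The strongest, with a signal value of 609.8, lay inside the gene, 191 bp downstream of the TSS of the second promoter, and held the site printed above. A neighbouring peak held a full p53 site within 100 bp of its summit as well. It lay 14 bp upstream of the same TSS with 169.6 in the final list. In replicate 3 both had the same strongest overlapping region, at 367, and whether a weaker one lay under the second peak was not looked at. In replicate 2 their strongest overlapping regions differed, at 247 and 52.2. The remaining peak, 59 bp upstream of the first promoter, had 107 (42.5 in replicate 2 and 71.6 in replicate 3) and held the DREF word. The eGFP exon is part of this gene, and where it sits relative to these peaks was not used here.

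Words of widely expressed genes were found at a small share of the one-strand peaks. Within 100 bp of the summit, on either strand, 68 of 892 peaks (7.62%, 6.06 to 9.55) held the DREF word and 58 (6.502%, 5.06 to 8.31) the M1BP word. In windows of the same length placed at the median summit position of all 13200 one-strand promoters, the shares were 4.69% and 3.48%. Genes with the DREF word included eEF1gamma, eIF2A, a translation initiation factor gene, and Alg3, a glycosylation enzyme gene named after its values were seen. Both words were held by 6 peaks (0.673%), and their overlap was not tested.

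The DREF word was rarer at one-strand than at divergent peaks. It was held by 7.62% of one-strand peaks and by 72 of 502 divergent peaks (14.3%, 11.5 to 17.7; Fisher's exact adjusted p = 0.000652 over 22 word comparisons). With a TSS window of 250 bp the shares were 10.3% and 14.1% and the call was lost (Fisher's exact adjusted p = 0.271). Summits within 100 bp of a TSS made up 48.5% of one-strand and 75.5% of divergent peaks. The part of this distance in the DREF difference was not tested. For the M1BP word, the shares were 6.502% of one-strand and 8.96% of divergent peaks (Fisher's exact adjusted p = 0.234). Both words were more common than in the candidates, of which 3.75% held each (Fisher's exact adjusted p = 1.19e-05 for DREF and 0.00193 for M1BP). Neither of these calls held against candidates with a q of 0.01 or less, of which 9.82% held the DREF word and 8.31% the M1BP word, more than among the one-strand peaks (Fisher's exact adjusted p = 0.565 for each). For M1BP the call against all candidates was also lost among the stronger IDR peaks by signal (Fisher's exact adjusted p = 0.571) and with a TSS window of 250 bp (Fisher's exact adjusted p = 0.0987).

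The GAGA factor word, GAGAG, set one-strand apart from divergent peaks in the other direction. It was held by 247 of 892 one-strand peaks (27.7%, 24.9 to 30.7) and by 72 of 502 divergent peaks (14.3%, 11.5 to 17.7), a difference of 13.3 points (Fisher's exact adjusted p = 1.39e-07). The call held under every alternative tried, with differences from 6.14 to 18.3 points. Among the candidates 27.4% held it, a difference that did not pass the test (Fisher's exact adjusted p = 0.875), and among all one-strand promoters 27.8% did. One-strand summits lay farther from a TSS than divergent ones, as given above, and the part of this in the difference was not tested. This word occurred together with the DREF or M1BP word at 13 peaks (1.46%), an overlap that was not tested. Strong one-strand peaks with it included wnd, px, Corp, hid, Sesn and aop.

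Full p53 sites were found at few one-strand peaks. They were held by 66 of 892 (7.399%, 5.86 to 9.31), by 20 of 502 divergent peaks (3.98%, 2.59 to 6.07; Fisher's exact adjusted p = 0.0468) and by 273 candidates (5.41%; adjusted p = 0.0720). Of all one-strand promoters, 5.84% held one in a window of this length. The first of these calls is fragile: it was lost under every alternative run for it except the word window of 50 bp, with adjusted p-values up to 0.612. The second depended on the setting as well. It became a call among the stronger IDR peaks by signal, where 10.2% of one-strand peaks held a site (4.79 points, Fisher's exact adjusted p = 0.00141), and also without either replicate, with a TSS window of 1000 bp and with a word window of 200 bp. It was 0.895 points with a TSS window of 250 bp (Fisher's exact adjusted p = 0.480) and 1.25 points with the strand rule over all annotated genes (Fisher's exact adjusted p = 0.425). By signal group, sites were held by 23 of 223 peaks in each of the 2 stronger groups (10.3%, 6.97 to 15.0) and by 9 and 11 in the weaker ones. An exact half-site was held by 40 peaks (4.48%), against 2.59% of divergent peaks and 3.41% of candidates (adjusted p = 0.198 and 0.234).

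The other words gave no call in either comparison with the settings used throughout. The TATA box word, TATAAA, was held by 21.4% of one-strand peaks, 26.7% of divergent peaks and 18.1% of candidates (Fisher's exact adjusted p = 0.0807 and 0.0713). Its difference from divergent peaks became a call without replicate 2 (-6.79 points, Fisher's exact adjusted p = 0.0121) and without replicate 3 (-6.31 points, Fisher's exact adjusted p = 0.0474). Its difference from candidates became one without replicate 3 (3.89 points, Fisher's exact adjusted p = 0.0383) and with a TSS window of 1000 bp (4.51 points, Fisher's exact adjusted p = 0.00345). The initiator word, TCAGT, was held by 33.0%, 29.9% and 33.3%. The windows of the same length at all 13200 one-strand promoters held the TATA box word in 31.4% and the initiator word in 44.5%. Both shares were higher than among the one-strand peaks, and this was not tested. The E-box was held by 12.9%, 14.9% and 12.4%, and the Zelda word CAGGTAG, the Myc/Max word CACGTG and the AP-1 word TGACTCA by 1.01%, 3.14% and 1.79% of one-strand peaks. The lowest adjusted p among these last 5 words was 0.468. Under the alternatives, the E-box became a call against divergent peaks without replicate 2 (-6.40 points, Fisher's exact adjusted p = 0.00526) and with a word window of 200 bp (-10.2 points, Fisher's exact adjusted p = 0.000234).

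**Figure D3:**
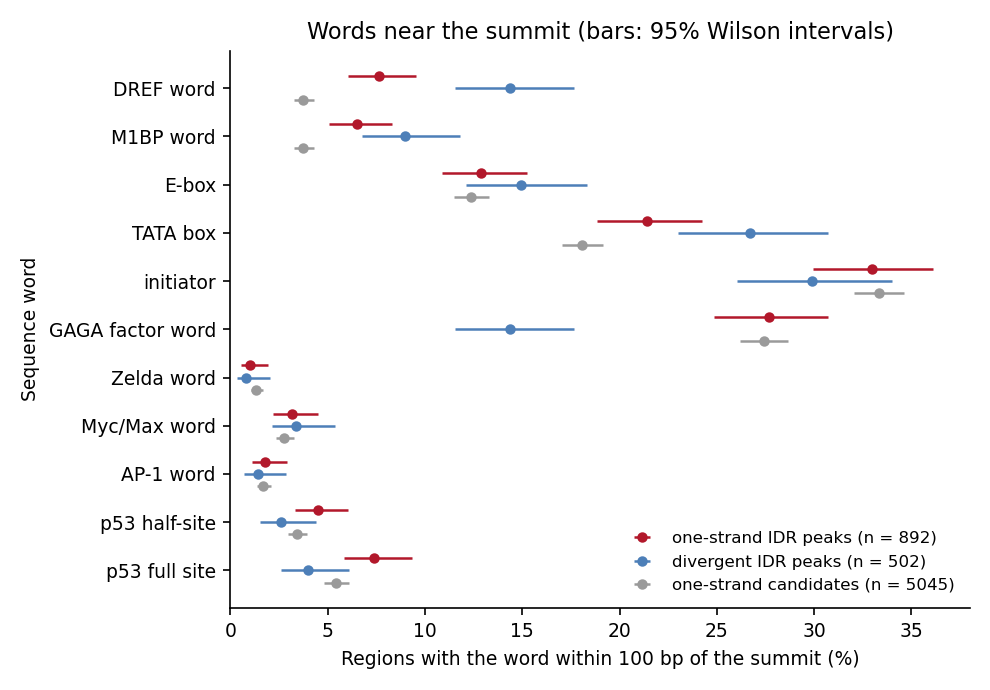
Share of regions with each sequence word within 100 bp of the summit (horizontal axis, %), for the 892 one-strand IDR peaks (red), the 502 divergent IDR peaks (blue) and the 5045 one-strand candidates (grey), with 95% Wilson intervals as bars. For the GAGA factor word the red point is at 27.7% and the blue at 14.3%, and for the DREF word the red point is at 7.62% and the blue at 14.3%.

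The words differed in where they lay relative to the TSS, within the limit that only words near a summit were counted. The DREF word occurred 72 times, with a median position of 39 bp upstream (median -39 bp, quartiles -62.5 and -11.2 bp). The M1BP word occurred 62 times around a median of -19.5 bp, and 41 of these (66.1%, 53.7 to 76.7) read in the direction of transcription. The GAGA factor word occurred 528 times around a median of -84.5 bp, with 223 (42.2%, 38.1 to 46.5) in the direction of transcription. Full p53 sites had a median position of -151 bp with quartiles at -226 and -63.8 bp. Peaks with the M1BP word had a median signal of 94.0 and those without it 111.8. Peaks with a full p53 site had a median of 119.1 and those without it 107.0.

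**Figure D4:**
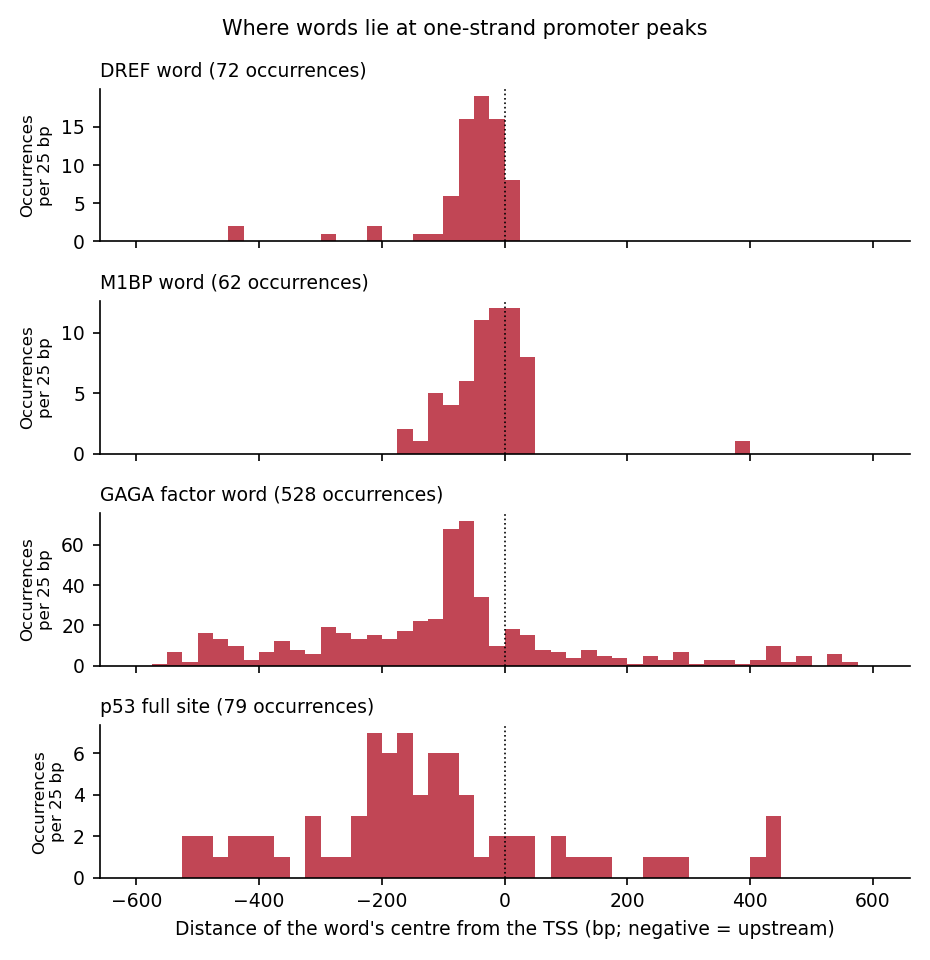
Number of occurrences per 25 bp (vertical axes) by distance of the word's centre from the TSS (horizontal axis, bp, negative upstream), for 4 words within 100 bp of one-strand peak summits. The DREF and M1BP words gather within about 100 bp of the TSS, the GAGA factor word around -84.5 bp, and the p53 sites spread farther upstream.

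For gene classes, the background was 834 of the 10751 genes that could hold a one-strand peak, or 7.76%. Cytosolic ribosomal protein genes stood far above it, with 34 of 60 (56.7%, 44.1 to 68.4). Their summits sat tightly at the TSS, from 109 bp upstream to 47 bp downstream with a median of -11.5 bp, and 32 of the 34 lay within 100 bp. The strongest were RpL23A (413 in the final list, 152 in replicate 2 and 254 in replicate 3), RpL22 (291, 129 and 156) and RpL30 (273, 110.0 and 171). In replicate 2 the values of the 34 ran from 20.9 to 151.5 with a median of 50.4, and in replicate 3 from 39.2 to 254 with a median of 87.4. The DREF word was held by 11 of them, the M1BP word by 5, the GAGA factor word by 3 and a full p53 site by none, and 25 further genes of this class had only a divergent peak. Of all one-strand peaks, 7.62% held the DREF word, 6.50% the M1BP word and 27.7% the GAGA factor word. For the p53 site, the interval of 0 to 10.2% includes the 7.40% of all one-strand peaks. RpS14b, with a signal value of 87.3 and named after its values were seen, has a near-identical neighbouring copy, and how reads were shared between copies is not known here.

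Other parts of the translation machinery were less often marked. Of the translation factor genes, 9 of 39 (23.1%, 12.6 to 38.3) had a one-strand peak, and 8 of the 9 lay within 100 bp of the TSS. eIF6, a ribosome maturation factor, led with 410 and held a full p53 site, followed by eEF1gamma at 275 and eIF2A at 244. Mitochondrial ribosomal protein genes had 3 of 20 (15.0%, 5.24 to 36.0), led by mRpL41 at 568 with mRpL4 at 139 and mRpL13 at 102. Aminoacyl-tRNA synthetase genes, which charge tRNAs, had 0 of 14, with an upper bound of 21.5%.

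Of the lists linked to p53 and to stress, those of radiation targets, growth restraint and the JNK pathway had, in the full IDR list, shares whose intervals lay above the background. Of 9 p53 radiation-response targets, 4 had a one-strand peak (44.4%, 18.9 to 73.3): Xrp1 at 1969.7, egr at 675, Corp, a feedback regulator of p53, at 313, and hid, a death gene that blocks the caspase inhibitor Diap1, at 200. Of 15 stress and growth restraint genes, 8 had one (53.3%, 30.1 to 75.2). They were led by Xrp1, Sesn, the sestrin that restrains TOR, at 363, and REPTOR, a transcription factor held back by TOR, at 132. In this class 6 of 8 held the GAGA factor word (40.9 to 92.9%), beside 27.7% of all one-strand peaks. None held the DREF or M1BP word (0 to 32.4% for each), intervals that include the 7.62% and 6.50% of all one-strand peaks. JNK pathway genes had 4 of 16 (25%, 10.2 to 49.5), led by wnd, egr and bsk, the JNK itself, at 152. The JNK pathway share was 18.75% without replicate 2, beside 8.15% of all genes. It was 31.25% without replicate 3, beside 7.33%. Cell death genes had 2 of 13 (15.4%, 4.33 to 42.2), egr and hid, and DNA damage genes 1 of 11 (9.09%, 1.62 to 37.7), which was p53 itself, and both intervals include the background. A full p53 site was held by 0 of 4 marked radiation targets, 0 of 8 marked growth restraint genes and 0 of 4 marked JNK pathway genes. The interval was 0 to 32.4% for the growth restraint genes and wider for the other lists. Each interval includes the 7.40% of all one-strand peaks, so these counts cannot show whether sites were rarer there. p53, in the DNA damage list, did hold a site. Xrp1 and egr stand in several of these lists, so the classes are not independent of each other.

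Chromatin genes and, in the full IDR list, cell cycle and general transcription genes also had intervals above the background. Polycomb and trithorax group genes had 8 of 18 (44.4%, 24.6 to 66.3), with ph-p at 659, Trl at 173 and Pc, the founding member of the group, at 120. The copies ph-p and ph-d lie side by side and are alike in sequence. Cell cycle genes had 6 of 21 (28.6%, 13.8 to 49.96), of low signal: Dp at 159, Rbf, the retinoblastoma homologue, at 87.1 and Orc1 at 83.9, with a class median of 83.1. Among the stronger IDR peaks by signal, the cell cycle share was 4.76%, beside 4.02% of all genes there. RNA polymerase subunits and general transcription factors had 5 of 25 (20%, 8.86 to 39.1), led by TfIIA-S at 277, Polr2F at 167 and TfIIA-L at 158. The heat shock genes Hsp83 (238), Hsp27 (152) and Hsp26 (126) made 3 of 24 (12.5%, 4.34 to 31.0), with summits 80 to 122 bp upstream. All 3 held the TATA box word (43.9 to 100%), beside 21.4% of all one-strand peaks.

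The tissue lists had shares whose intervals include the background of 7.76%. Embryonic patterning and Hox genes had 5 of 44 (11.4%, 4.95 to 24.0), among them bcd at 153 and wg at 97.6. Neuronal and glial genes had 3 of 27 (11.1%, 3.85 to 28.1), moody at 310, elav at 168 and futsch at 111. Muscle genes had 4 of 22 (18.2%, 7.31 to 38.5), led by Msp300 at 233, sls at 94.8 and Mef2 at 82.7, and germline genes had 2 of 13 (15.4%, 4.33 to 42.2), bgcn at 194 and tud at 100.7. Without replicate 2 the germline share was 30.8% and without replicate 3 it was 23.1%, beside 8.15% and 7.33% of all genes. Without either replicate the muscle share was 22.7%. Proteasome genes had 2 of 27, Prosalpha4 and Rpn10, both downstream of the TSS, and vacuolar ATPase genes 2 of 23, Vha16-1 and Vha68-2. Respiratory chain genes had 2 of 49 (4.08%), ATPsynC and ND-B17. The only entry among 22 in the Rab list was Rab3-GEF, an exchange factor that the name pattern took in, at 279.

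Several large families held no one-strand peak. These were the odorant and gustatory receptors with 0 of 108 (upper bound 3.43%), the cytochrome P450 genes with 0 of 82 (4.48%), the Cpr cuticle proteins with 0 of 69 (5.27%), the replication-dependent histones with 0 of 27 (12.5%), the spliceosomal proteins with 0 of 8 and the CCT chaperonin subunits with 0 of 4. The first 3 upper bounds lie below the background share. These shares describe the lists and were not tested, and gene expression in the embryos was not measured.

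**Figure D5:**
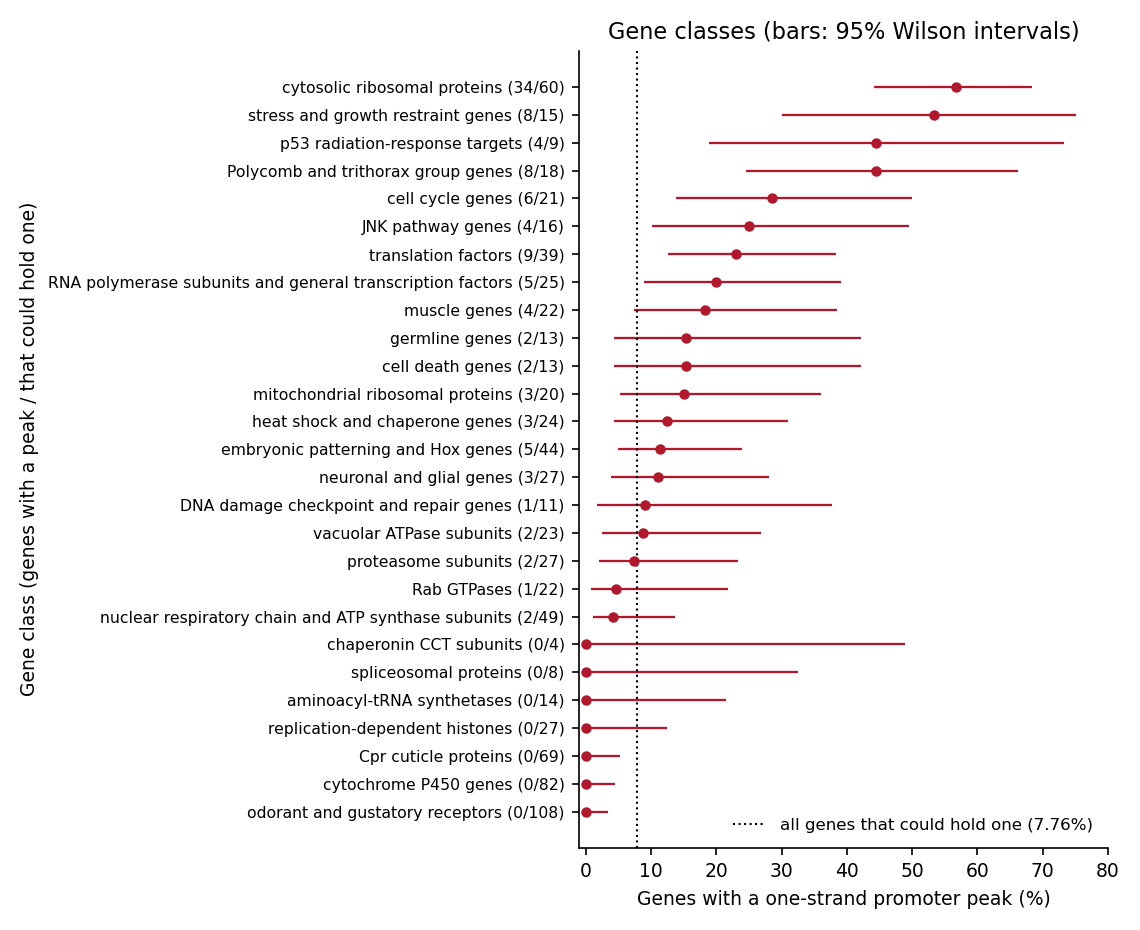
Share of genes with a one-strand peak (horizontal axis, %) in each of 27 gene classes (rows, with genes marked and genes that could hold a peak), with 95% Wilson intervals as bars and the share over all genes, 7.76%, as a dotted line. Cytosolic ribosomal proteins (56.7%) and stress and growth restraint genes (53.3%) stand highest, and 7 classes are at 0.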

How the data were processed

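ChIP-seq peak lists in the dm6 build were used, and the dm3 lists were not. Per the deposited provenance lists, each replicate's list came from its own alignment and 1 control library shared by both, the pooled list from both alignments, and the final list from these by IDR; the control library was not analysed here. The sources used here name no aligner, caller or IDR threshold. Per the labels, chromatin was sonicated to 200 to 800 bp. The deposited lists give a signal value and a −log10 q-value per peak, both the authors' own.

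The start of a peak plus its deposited offset gave the summit. TSSs came from Ensembl release 115 gene models, and sequence from the Release 6 genome. Overlaps needed 1 bp. Sequence words counted on either strand up to 100 bp from a summit. Comparisons of shares used Fisher's exact test, two-sided (SciPy 1.17.1), with Benjamini-Hochberg adjustment within each family (2 distance, 3 signal and 22 word comparisons) and a threshold of 0.05, with Wilson 95% intervals. The statistics were tested on simulated data. Named genes are those at the 20 strongest one-strand peaks, up to 3 in each of 27 gene lists and every gene with at least 3 such peaks. The members, lists and words were chosen with earlier results of these data known. In the lists, 5 entries matched no gene. The alternatives left out each replicate (the 2290 strongest regions of the other), or changed the IDR list, TSS windows, strand rule, candidates, word windows and promoter merging. Some genes picked by the naming rule are not reported here.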

Additional observations from a re-analysis of the deposited data

How the results depend on the processing

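Values are differences in percentage points, one-strand peaks minus the others; the cause of a change was not tested. The upstream excess over candidates kept its direction and call under all alternatives, with 25.8 to 28.8 when leaving out a replicate. The first-promoter difference from candidates lost its call among the stronger IDR peaks by signal (4.07), with the strand rule over all annotated genes (5.55), with 1 peak per gene (5.03) and without replicate 3 (4.77, against 8.26 without replicate 2), and was -0.207 against candidates with a q of 0.01 or less. Against those candidates, the share within 100 bp of the TSS was -7.12. The signal comparison was -5.19 against intergenic peaks among the stronger peaks, -2.88 and -2.62 against intronic and intergenic peaks with a 250 bp window, and 7.27 against intronic peaks, now a call, with a 1000 bp window. The share in both replicates was -4.10 with a 250 bp window.

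Among words, 12 of 209 alternative values gained a call, for the TATA box (4), the E-box (2), the full p53 site (5) and the M1BP word (1, -4.99 against divergent peaks with a word window of 200 bp), and 29 changed sign, none of them past the threshold. Against candidates with a q of 0.01 or less they were -2.20 (DREF), -1.81 (M1BP), 0.505 (Zelda) and -0.221 (AP-1). Without a replicate, they ran from -0.919 to -0.340 (E-box, candidates), -0.250 to 1.02 (initiator, candidates), -0.292 to 0.167 (Zelda, divergent) and -0.373 to 0.708 (Myc/Max, candidates). Among the stronger peaks they were -1.50 (E-box, candidates), 0.383 (initiator, candidates) and 0.842 (Myc/Max, divergent). With a TSS window of 250 bp they were 0.237 (E-box, divergent), -2.999 (GAGA factor, candidates) and -0.398 (Zelda, divergent), and with 1000 bp 0.472 (initiator, candidates), -0.0785 (AP-1, divergent) and -0.117 (AP-1, candidates). With a word window of 50 bp they were 0.587 (M1BP, divergent), -0.164 (E-box, candidates), -0.190 (initiator, divergent), -2.13 (GAGA factor, candidates), -0.236 (Zelda, divergent), 0.287 (Myc/Max, divergent) and -0.498 (AP-1, divergent). With 200 bp they were -0.116 (E-box, candidates), -0.0324 (AP-1, candidates), -0.134 (half-site, divergent) and -0.0792 (half-site, candidates).

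Of 189 gene class values, 184 stayed within the interval of the main share. The others came from the stronger IDR peaks, where 4.02% of all genes held a one-strand peak, with the ribosomal proteins at 40.0%, the Polycomb and trithorax group at 22.2%, cell cycle genes at 4.76% and the patterning and muscle lists at 4.55% each. Measuring from the 5′-most TSS of the window, an alternative chosen after seeing the data, gave 26.6 for the upstream share and 12.3 for the share within 100 bp. No paired analysis was possible because the replicates form 1 group. Peak lists give no read counts, so precision per peak is unknown.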

Other observations

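Core promoter words at their usual places were rarer at the start sites of one-strand peaks. A TATA box word from 40 to 20 bp upstream was found at 25 of 868 start sites nearest to one-strand peaks (2.88%, 1.96 to 4.22), at 240 of 4494 start sites nearest to candidates (5.34%) and at 950 of all 13200 one-strand promoters (7.20%). An initiator word within 5 bp of the TSS was found at 7.83%, 10.8% and 9.92% of the same sites. These shares describe the sites and were not tested.

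Among the 223 weakest one-strand peaks, 25 (11.2%, 7.71 to 16.03) held the M1BP word, against 7 (3.14%, 1.53 to 6.34) of the 223 strongest. For the GAGA factor word the counts were 55 (24.7%) and 73 (32.7%), and for the DREF word 20 (8.97%) and 15 (6.73%).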
